A study of Mus musculus with 12 samples.

Results

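The proteasome genes of cultured mouse oligodendrocyte precursor cells (OPCs) were taken as every symbol that starts with Psm, a letter from a to g and a number, together with *Pomp*. This rule found 51 of the 45563 gene symbols used, and 4 names of pseudogenes were left out. Among them, *Psmc3ip* encodes a recombination cofactor that matches the naming pattern and is not a proteasome subunit. Of the 51 genes, 50 had a mean of at least 0.1 FPKM (fragments per kilobase, scaled to 1000000 read pairs per library) and were tested. The lengths by which the deposited FPKM were divided did not follow annotated exon length. The other, *Psma8*, a testis alpha subunit, had at most 1 read in any library.

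RNA was sequenced from OPCs isolated with anti-PDGFRα beads from the cortices of WT and TNFR2-/- C57BL/6 pups, with the age labelled as postnatal days 2 to 5. After 3 days in vitro the cells received TNF, IFNγ and IL1β at 25 ng/mL each for 3 h (stimulated, St) or the PBS vehicle (non-stimulated, NS). The TNFR2-/- animals lack the receptor in all cells and not only in the OPC lineage. Each of the 4 groups (WT NS, WT St, TNFR2-/- NS, TNFR2-/- St) has 3 libraries, 12 in all, with replicate numbers 2, 3 and 4 in WT and 2, 4 and 5 in TNFR2-/-.

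The proteasome degrades ubiquitinated proteins. Its 20S core is a barrel of outer alpha and inner beta rings, and the beta subunits PSMB5, PSMB6 and PSMB7 carry the proteolytic sites. Interferon-exposed cells replace these by PSMB8 (LMP7), PSMB9 (LMP2) and PSMB10 (MECL-1) in newly built particles, the immunoproteasome, whose cut sites favor peptides that bind MHC class I. The 19S cap recognizes and unfolds substrates with a ring of ATPases (PSMC proteins) and a base and lid of PSMD proteins. The 11S activator PA28αβ (PSME1 and PSME2), PA28γ (PSME3) and PA200 (PSME4) open the core without ubiquitin. POMP and the PSMG chaperones assemble the core, whereas PSMD5, PSMD9 and PSMD10 assemble the base.

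The promoters of the 3 catalytic immunoproteasome genes and *Psme1* are shown with that of *Psmb5*, the constitutive counterpart of *Psmb8*. They are RefSeq sequences of GRCm38.p6, from 250 bases before to 50 after a start site, written 5′ to 3′ on the strand of the gene. Capitals mark letters that match one of 4 motifs searched on both strands, namely GAAA, any 2 bases and GAAA (interferon-stimulated response element, ISRE), TTCNNNGAA (gamma-activated site, GAS), GGG, any 2 bases, TT, any base and CC (NF-κB) and TGACNNNGC (antioxidant response element, ARE). The 5 windows lie at chr17:34197945-34198244 on the plus strand (*Psmb8*), chr17:34187281-34187580 on the minus strand (*Psmb9*), chr8:105938343-105938642 on the minus strand (*Psmb10*), chr14:55578244-55578543 on the plus strand (*Psme1*) and chr14:54617946-54618245 on the minus strand (*Psmb5*).
Psmb8: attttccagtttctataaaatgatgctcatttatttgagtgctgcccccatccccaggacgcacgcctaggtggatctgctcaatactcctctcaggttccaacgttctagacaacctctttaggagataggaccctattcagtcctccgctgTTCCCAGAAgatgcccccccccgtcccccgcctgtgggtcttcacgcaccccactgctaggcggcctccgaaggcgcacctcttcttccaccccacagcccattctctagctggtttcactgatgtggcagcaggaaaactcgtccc
Psmb9: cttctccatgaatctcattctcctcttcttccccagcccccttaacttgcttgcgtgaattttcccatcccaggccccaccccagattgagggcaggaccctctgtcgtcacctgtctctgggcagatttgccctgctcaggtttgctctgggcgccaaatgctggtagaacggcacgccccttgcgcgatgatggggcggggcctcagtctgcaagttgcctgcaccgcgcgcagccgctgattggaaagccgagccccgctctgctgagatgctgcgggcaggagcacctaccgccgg
Psmb10: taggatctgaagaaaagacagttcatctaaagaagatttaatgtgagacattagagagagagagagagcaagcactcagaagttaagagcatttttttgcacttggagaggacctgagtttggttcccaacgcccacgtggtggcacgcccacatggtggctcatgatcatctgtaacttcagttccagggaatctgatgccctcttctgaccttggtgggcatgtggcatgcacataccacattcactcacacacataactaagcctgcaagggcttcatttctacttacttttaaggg
Psme1: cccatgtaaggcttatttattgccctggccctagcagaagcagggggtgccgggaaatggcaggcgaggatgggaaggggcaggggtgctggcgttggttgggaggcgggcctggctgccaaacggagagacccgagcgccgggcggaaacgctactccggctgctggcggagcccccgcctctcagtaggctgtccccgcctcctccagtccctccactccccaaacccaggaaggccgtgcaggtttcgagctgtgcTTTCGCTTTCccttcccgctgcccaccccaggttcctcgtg
Psmb5: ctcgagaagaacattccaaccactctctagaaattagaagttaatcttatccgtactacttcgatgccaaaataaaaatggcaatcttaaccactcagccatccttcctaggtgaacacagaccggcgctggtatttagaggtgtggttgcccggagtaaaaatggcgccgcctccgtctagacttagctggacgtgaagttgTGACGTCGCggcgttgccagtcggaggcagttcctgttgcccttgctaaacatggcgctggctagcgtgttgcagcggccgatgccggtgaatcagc
The *Psmb8* window held 1 GAS match, the *Psme1* window 1 ISRE match just after the start site of that window and the *Psmb5* window 1 ARE match. The *Psmb9* and *Psmb10* windows held none of the 4, nor did those of *Psme2* and *Psme2b*, which are not shown. Windows were found for 43 of the 51 genes (46 windows). The ISRE letters occurred in 5 of these 46 windows (10.9%), those of *Psmb3*, *Psmd4*, *Psmd9*, *Psme1* and *Psmg4*, against 3.44% of all 32851 promoter windows. The GAS letters occurred in 3 (6.52%, against 8.3% of all), the ARE letters in 6 (13.0%, against 12.4%) and the NF-κB letters in none (against 4.79%). These matches describe letters in these windows only. The windows of *Psmb8*, *Psmb9* and *Psme1* lie wholly within the GENCODE M21 spans of these genes, past their annotated 5′ ends. They hold no sequence upstream of those ends.

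*Psmb9* and *Psmb8* lie within the class II region of the MHC on chromosome 17, beside the peptide transporter genes *Tap1* and *Tap2*. In GENCODE M21 on GRCm38, *Psmb9* spans chr17:34181987-34187764 on the minus strand and overlaps *Tap1* (plus strand) by 212 bases. *Psmb8* spans chr17:34197721-34201454 on the plus strand and starts 495 bases after *Tap1* ends. Use of strand in counting was not stated, so reads in the 212 shared bases cannot be told apart. *Psme1* (chr14:55578123-55581529, plus strand) and *Psme2* (chr14:55587441-55591113, minus strand) are 5911 bases apart, and *Psmb10* lies at chr8:105935735-105938444 on the minus strand.

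Library totals ranged from 26886879 to 30335266 read pairs, the lowest being WT NS replicate 3. OPC markers were detected in every group (6 of 6 genes), whereas 7 to 9 of 12 microglial and leukocyte markers, among them *Ptprc*, *Aif1* and *Cx3cr1*, had no more than 3 reads in any library of a group. The summed level of 6 astrocyte markers was 790 to 943 RPM (reads per 1000000 read pairs of the library) in the WT libraries and 1220 to 2520 in those labelled TNFR2-/-. That of 6 OPC markers was 3970 to 4370 RPM in WT NS and 2840 to 3150 in WT St. In libraries labelled TNFR2-/- it was 3910 to 4910 in NS and 2730 to 3200 in St. Neuron markers (6) stood at 799 to 884 in WT NS, 720 to 734 in TNFR2-/- NS and 1030 to 1130 in St libraries. Mural and fibroblast markers (6) ranged from 255 to 871 in WT NS and 107 to 542 in TNFR2-/- NS. In WT St and TNFR2-/- St they ranged from 323 to 790 and from 74.7 to 467. *Tnfrsf1b*, the gene of TNFR2, went against the labels: its reads numbered 12 to 24 per WT NS library and 213 to 346 per TNFR2-/- NS library (log2 fold change 2.35 ± 0.21 SE, adjusted p = 0.00134 by limma). Directions between genotypes are therefore given for the libraries labelled TNFR2-/-. In cultures of mixed cells, fewer cells of a type and less RNA per cell cannot be told apart.

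In WT NS cells the constitutive subunits were abundant and of similar level. Per kilobase of annotated exon, the 7 alpha subunits had means of 44.3 to 94.4 RPM and the 7 constitutive beta subunits 52.3 to 156. The 17 subunits of the 19S cap within the naming pattern had 45.6 to 109. *Psmb6* was highest, at 156 ± 7.44 (SD, n = 3). Assembly factors were lower, from 4.96 ± 0.410 for *Psmg3* to 24.9 ± 1.22 for *Psmg4*. The immunoproteasome subunits *Psmb8* (0.444 ± 0.0302) and *Psmb9* (0.558 ± 0.179) had the lowest levels of the tested genes apart from *Psmb11*, whereas *Psmb10* stood at 11.1 ± 0.602. The thymus subunit *Psmb11* had 0 to 10 reads per library.

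With cytokines, WT OPCs raised 14 of the 50 genes and lowered none at an adjusted p of at most 0.05 (limma on log2(FPKM + 0.5), over 18081 genes). Of all genes tested, 16.1% were called in this comparison, 7.7% upward and 8.36% downward. The 14 comprised the 3 catalytic immunoproteasome subunits, 4 alpha subunits, 2 lid subunits, 2 chaperones of the 20S core and 3 genes counted here as PA28αβ. These 3 are *Psme1*, *Psme2* and *Psme2b*, whose rise cannot be told apart from reads of *Psme2*. The libraries labelled TNFR2-/- changed in 15 genes, with 6 up and 9 down, where 26% of all genes were called (9.62% up). The 6 genes that rose by at least 1.5-fold were the catalytic immunoproteasome and PA28αβ genes in both genotypes, with 4.58% of all genes called up by that rule in WT and 5.41% in the libraries labelled TNFR2-/-. With that rule 6 of the 50 genes were called in each genotype, against 7.53% of all genes in WT and 10.1% in TNFR2-/-. The comparisons share libraries, so their values are set side by side and not counted as independent.

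**Figure D1:**
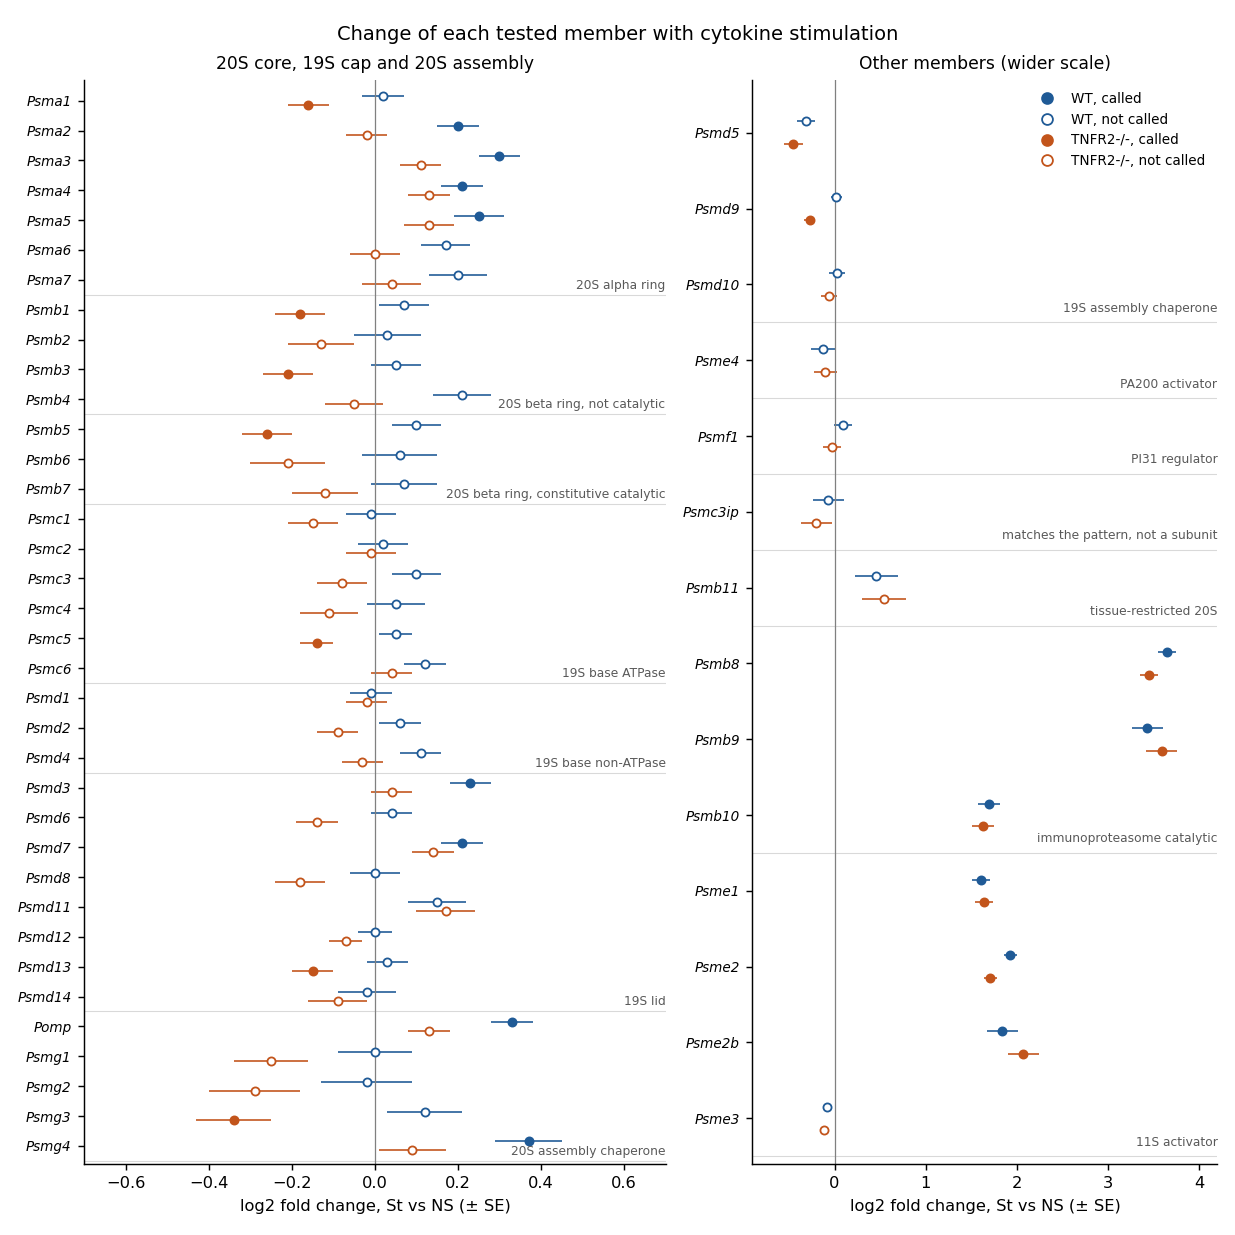
Log2 fold change (± SE) of each of the 50 tested genes with stimulation, in WT (blue) and in libraries labelled TNFR2-/- (orange), grouped by class; filled points passed an adjusted p of at most 0.05. The catalytic immunoproteasome and PA28αβ genes lie between 1.61 and 3.65 in both genotypes, and the constitutive core, cap and assembly genes within 0.5 of 0.

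*Psmb8*, which replaces *Psmb5*, had 23, 18 and 22 reads in the WT NS libraries and 875, 882 and 845 in WT St. In those labelled TNFR2-/- it had 36, 28 and 30 reads without and 805, 778 and 948 with cytokines. No NS library came near an St library in either genotype. The mean level in RPM rose 39.9-fold in WT and 27.5-fold in TNFR2-/-. The log2 fold changes on the log2(FPKM + 0.5) scale were 3.65 ± 0.10 (SE, adjusted p = 4.81e-09) and 3.45 ± 0.10 (adjusted p = 6.93e-09, limma), lower than in reads because both NS groups lie under the added 0.5.

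*Psmb9*, which replaces *Psmb6*, had 31, 16 and 19 reads in WT NS and 614, 611 and 604 in WT St. In libraries labelled TNFR2-/- it had 44, 45 and 61 reads in NS and 971, 796 and 1272 in St. The 4 groups did not overlap. Every St library was above every NS library, and each TNFR2-/- library was above each WT library of the same treatment. The rise was 26.9-fold in WT and 20.8-fold in TNFR2-/- by mean RPM, or 3.43 ± 0.17 (adjusted p = 2.08e-07) and 3.59 ± 0.17 (adjusted p = 1.3e-07) on the log2 scale (limma).

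*Psmb10*, which replaces *Psmb7*, started from a higher level. It had 463, 390 and 415 reads in WT NS and 1497, 1334 and 1465 in WT St, a rise of 3.26-fold. In libraries labelled TNFR2-/- it went from 547, 612 and 622 to 1679, 1632 and 2180 reads, a rise of 3.16-fold. Both rises exceeded the spread between libraries (log2 fold changes 1.69 ± 0.12 and 1.63 ± 0.12, adjusted p = 3.2e-06 and 3.53e-06 by limma).

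**Figure D2:**
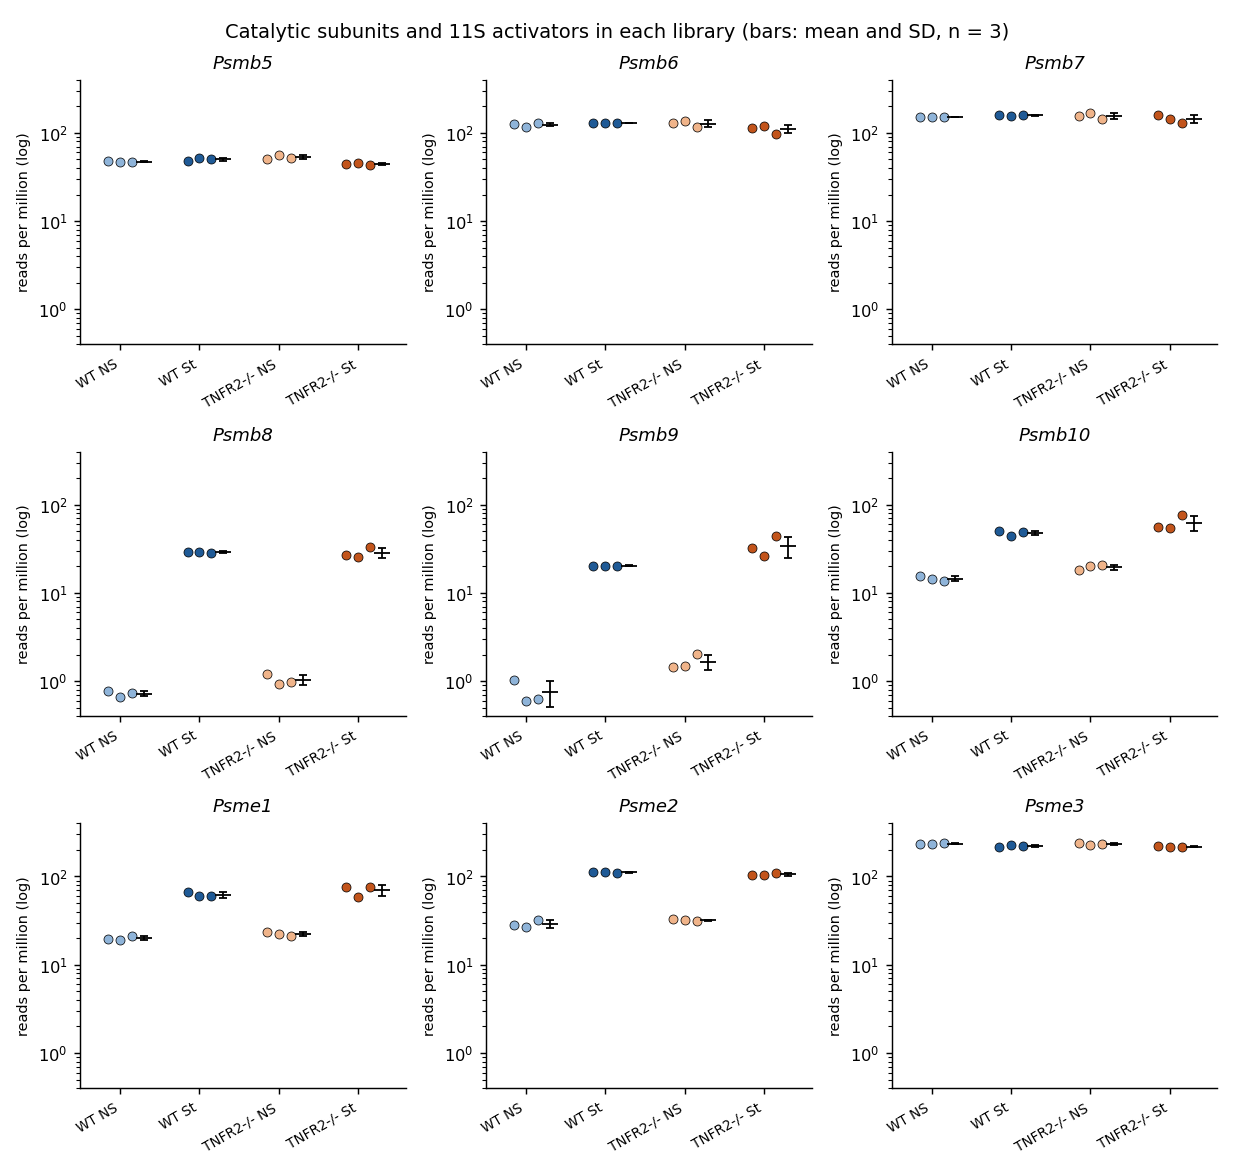
RPM (log axis) of the constitutive catalytic subunits (top), their immunoproteasome counterparts (middle) and the 11S activators (bottom) in each of the 12 libraries; points are libraries and bars the mean and SD (n = 3). *Psmb8* rises from 1.2 or less to at least 25.7, whereas *Psmb5* stays between 42.8 and 56.8.

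The constitutive counterparts moved little in WT. *Psmb5* had 1424, 1264 and 1397 reads in WT NS and 1459, 1567 and 1508 in WT St. These groups did not overlap in RPM, as was so for 37.7% of all genes, and the log2 fold change of 0.10 ± 0.06 did not pass the test (adjusted p = 0.317, limma). *Psmb6* had 3748, 3168 and 3885 reads in WT NS and 3895, 3902 and 3844 in WT St, and *Psmb7* had 4572, 4020 and 4586 against 4852, 4707 and 4790. Neither passed the test, at 0.06 ± 0.09 and 0.07 ± 0.08 (adjusted p = 0.747 and 0.687, limma).

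Per length, the immunoproteasome transcripts therefore gained on their counterparts. *Psmb8* was 0.892%, 0.786% and 0.87% of *Psmb5* in the WT NS libraries and 33.1%, 31.1% and 30.9% in WT St. In libraries labelled TNFR2-/- it was 1.3%, 0.9% and 1.06% in NS and 33.4%, 31.3% and 42.6% in St. *Psmb9* reached 9.24% to 9.3% of *Psmb6* in WT St and 13.0% to 27.0% in TNFR2-/- St, from no more than 1.02% in any NS library. *Psmb10* went from 8.01% to 8.96% of *Psmb7* in WT NS to 25.1% to 27.3% in WT St, and from 10.3% to 12.6% to between 30.7% and 52.2% in TNFR2-/-. After 3 h each constitutive transcript was still the more abundant of its pair per length in all 12 libraries.

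**Figure D3:**
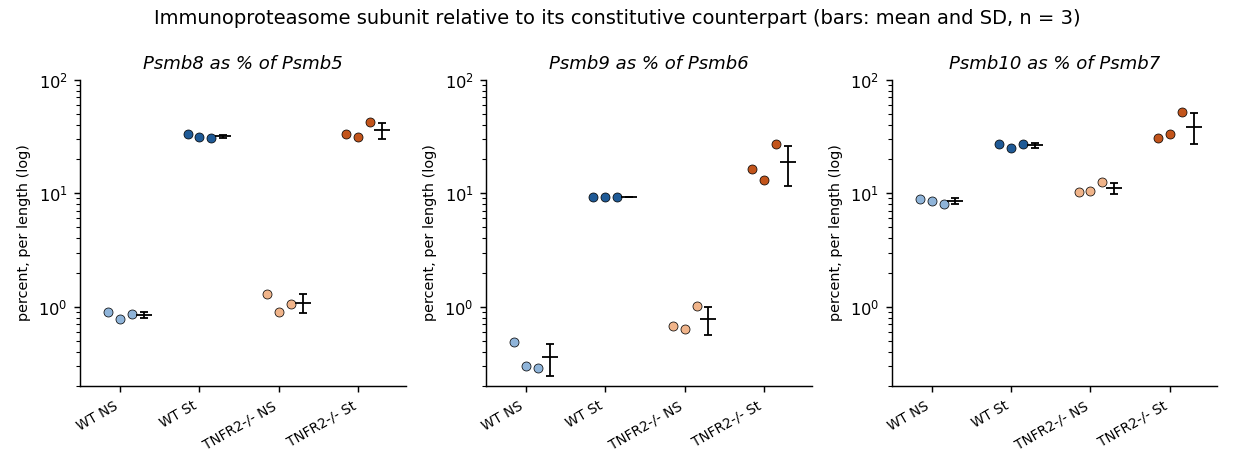
Level of each immunoproteasome subunit as a percent of its constitutive counterpart, both per length (log axis), in each library; bars give the mean and SD (n = 3). All St libraries lie above all NS libraries, and TNFR2-/- St replicate 5 is highest in each pair.

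The PA28αβ activator rose with the immunoproteasome. *Psme1* had 593, 517 and 629 reads in WT NS and 2012, 1780 and 1787 in WT St, and 702, 673 and 637 against 2264, 1766 and 2198 in the libraries labelled TNFR2-/-. *Psme2* had 842, 714 and 968 reads in WT NS and 3394, 3381 and 3312 in WT St, and 980, 964 and 956 against 3132, 3118 and 3148 in TNFR2-/-. For both genes every St library was above every NS library. *Psme1* rose by 1.61 ± 0.10 and 1.64 ± 0.10 on the log2 scale in WT and TNFR2-/- (adjusted p = 1.34e-06 and 1.04e-06, limma), and *Psme2* by 1.93 ± 0.07 and 1.71 ± 0.07 (adjusted p = 1.88e-08 and 4.32e-08). *Psme2b*, a copy of *Psme2* on chromosome 11, went from 52 to 60 reads in WT NS to 196 to 235 in WT St. Because 52.0% of its 100-base sequences also occur in *Psme2*, the rise of *Psme2b* cannot be told apart from reads of *Psme2*.

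The other activators behaved differently from PA28αβ. *Psme3*, the nuclear PA28γ, was the most abundant activator per length in NS cells and had 6946, 6323 and 7121 reads in WT NS and 6468, 6796 and 6746 in WT St. Its log2 fold change was -0.08 ± 0.04 in WT and -0.11 ± 0.04 in TNFR2-/- (adjusted p = 0.244 and 0.0791, limma), and under median-of-ratios scaling it was -0.02 and 0.01. *Psme4* (PA200, an activator best known from chromatin and sperm) had 4074, 4374 and 4488 reads in WT NS and 4063, 4345 and 3902 in WT St, with log2 fold changes of -0.13 ± 0.13 in WT and -0.10 ± 0.13 in TNFR2-/-. *Psmf1* (PI31, a proteasome-binding regulator) stood at 0.09 ± 0.10 and -0.03 ± 0.10. None of these passed the test, and with the replicate block *Psme3* did in TNFR2-/- (adjusted p = 0.013).

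Of the other 8 genes called in WT, 4 belonged to the alpha ring. All 7 alpha subunits had a log2 fold change above 0 (median 0.20, against -0.05 for all genes), as had 38.7% of all genes, and 4 of 7 were called. *Psma3* had 4800, 4299 and 4712 reads in NS and 5889, 5984 and 5789 in St, with no overlap between groups (0.30 ± 0.05, adjusted p = 0.00117, limma). *Psma5* (0.25 ± 0.06), *Psma4* (0.21 ± 0.05) and *Psma2* (0.20 ± 0.05) also rose, but their calls were lost in 6 of 24 alternative analyses each. *Psma1* had the smallest value (0.02 ± 0.05, adjusted p = 0.844). *Psma6* had 3208, 2894 and 3316 reads in NS and 3902, 3542 and 3605 in St, groups that did not overlap (0.17 ± 0.06, adjusted p = 0.0694, limma). Of the 100-base sequences of *Psma3* and *Psma5*, 13.4% and 23.7% occur in other genes, so part of their reads is uncertain. Without WT NS replicate 2, 9 of the 50 genes were called in WT, against 2092 of all 18066 genes tested in that fit.

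None of the 7 constitutive beta subunits was called in WT, although all 7 were above 0. *Psmb4*, a structural subunit, came closest with 0.21 ± 0.07 (adjusted p = 0.0735, limma, and 0.0145 with a replicate block within genotype), and *Psmb2* was lowest (0.03 ± 0.08, adjusted p = 0.876). Of the 17 subunits of the 19S cap, 13 were above 0 (median 0.05) and only the lid subunits *Psmd3* and *Psmd7* were called. *Psmd3* had 5249, 4522 and 5264 reads in NS and 5969, 6189 and 6075 in St (0.23 ± 0.05, adjusted p = 0.0113). *Psmd7* rose by 0.21 ± 0.05 (adjusted p = 0.0189). The 6 ATPases ranged from -0.01 ± 0.06 (*Psmc1*) to 0.12 ± 0.05 (*Psmc6*), which is called only with the block (adjusted p = 0.155, and 0.0276 with it). The other extremes of the cap were at or near 0, with *Psmd1*, a scaffold of the base, at -0.01 ± 0.05 and *Psmd14*, the deubiquitinase of the lid, at -0.02 ± 0.07. *Psmd1* had 4633, 4096 and 4644 reads in NS and 4648, 4302 and 4828 in St, and *Psmd14* had 2722, 2261 and 2637 against 2813, 2473 and 2510. For both genes the groups overlapped. With median-of-ratios scaling 18 of the 50 genes were called in WT, against 2591 of all genes, with *Psma6*, *Psma7*, *Psmb4* and *Psmd4* added. All 17 cap subunits were then above 0 (median 0.11), and the core median was 0.19. *Psmb4* was also called with voom.

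The summed level of the 14 constitutive 20S subunits was 1639 to 1670 RPM in WT NS and 1805 to 1856 in WT St. That of the 17 cap subunits was 2364 to 2436 and 2469 to 2555. Neither pair of groups overlapped. The 3 immunoproteasome subunits together went from 15.2 to 17.2 RPM in WT NS to 94.2 to 99.3 in WT St, a smaller gain in RPM than that of the constitutive core.

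Of the 5 assembly factors of the 20S core, 2 were called in WT. *Pomp*, the maturation factor that immunoproteasome assembly also needs, had 3742, 3241 and 3647 reads in NS and 4832, 4463 and 4571 in St (0.33 ± 0.05, adjusted p = 0.000787, limma). *Psmg4* had 402, 361 and 437 reads in NS and 488, 549 and 575 in St (0.37 ± 0.08, adjusted p = 0.0131). *Psmd5*, a chaperone of the 19S base, had 1541, 1275 and 1498 reads in NS and 1307, 1069 and 1203 in St. These groups did not overlap in RPM, and its log2 fold change of -0.31 ± 0.10 did not pass the test (adjusted p = 0.0657, limma). It was called downward under some alternatives, among them the replicate block within genotype (adjusted p = 0.00707), quantile normalization (0.0317) and voom (0.0413), and not with median-of-ratios scaling (0.109). *Psmd10* (gankyrin) had 419, 342 and 360 reads in NS and 435, 401 and 356 in St, with overlap (0.03 ± 0.09, adjusted p = 0.897). *Psmg2*, the partner of PSMG1, had 558, 438 and 483 against 551, 483 and 481 (-0.02 ± 0.11, adjusted p = 0.958).

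In the libraries labelled TNFR2-/- the 9 genes that fell were *Psma1*, *Psmb1*, *Psmb3*, *Psmb5*, *Psmc5*, *Psmd13*, *Psmd5*, *Psmd9* and *Psmg3*, where 16.3% of all genes were called downward. These are 4 subunits of the constitutive core, 2 of the cap and 3 assembly chaperones. The median change of the 14 core subunits was -0.08 and that of the 17 cap subunits also -0.08, against -0.11 for all genes. With the replicate block within genotype 27 of the 50 were called, with 11 up and 16 down, against 8153 of all 18081 genes. With median-of-ratios scaling in place of library totals the split turned to 12 up and 1 down, with medians of 0.03 for core and cap. Quantile normalization gave 8 up and 6 down. Of all genes, 3529 were called with median-of-ratios scaling and 4262 with quantile normalization. The direction of the constitutive subunits in this comparison thus depends on the scaling.

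*Psmb5* had 1532, 1718 and 1570 reads in TNFR2-/- NS and 1329, 1371 and 1228 in TNFR2-/- St. The groups did not overlap, as was so for 37.3% of all genes, and it fell by 0.26 on the log2 scale (± 0.06, adjusted p = 0.00552, limma). Under median-of-ratios scaling its change was -0.15 (adjusted p = 0.135), and 22.2% of its 100-base sequences occur in other genes. *Psmd5* fell from 1949, 1743 and 2183 reads to 1450, 1306 and 1407 (-0.45 ± 0.10, adjusted p = 0.00882) and kept its call in 24 of 24 alternatives. *Psmd9*, another base chaperone, fell by 0.27 (± 0.06, adjusted p = 0.00925), and 23.9% of its 100-base sequences are shared with the gene *Gm26745*. *Psmg3*, a chaperone of alpha ring assembly, went from 200, 182 and 198 to 166, 137 and 146 reads (-0.34 ± 0.09, adjusted p = 0.0231).

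*Psma3*, *Pomp*, *Psmd7* and *Psmg4*, which were called in WT, did not pass the test in TNFR2-/- libraries. *Psma3* stood at 0.11 ± 0.05 (adjusted p = 0.0993, limma), *Pomp* at 0.13 ± 0.05 (adjusted p = 0.0695) and *Psmd7* at 0.14 ± 0.05 (adjusted p = 0.0836). With the replicate block each of these 3 was called upward (adjusted p = 0.0487, 0.0122 and 0.0146). *Psmg4* was at 0.09 ± 0.08 (adjusted p = 0.475). Summed over the 14 core subunits, TNFR2-/- NS libraries had 1649 to 1808 RPM and TNFR2-/- St libraries 1579 to 1707, so these groups overlapped.

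The difference between genotypes in the response was tested as an interaction. None of the 50 genes passed it at an adjusted p of at most 0.05 (limma), and 1 of all genes did (0.00553%). At an unadjusted p under 0.05, 17 of the 50 were found, against 7.95% of all genes tested. The interaction was below 0 for 44 of 50 genes with a median of -0.16, and 59.6% of all genes were below 0 with a median of -0.05. With median-of-ratios scaling 40 of 50 were below 0 (median -0.10, all genes 0) and 3 had an unadjusted p under 0.05. All 14 core subunits were below 0 under library totals and under both other scalings, which describes their common direction and tests none of them. An interaction above 0 was found for 6 of 50 genes and 40.4% of all genes.

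Within a genotype, NS and St libraries with the same replicate number can be compared directly. In 8 of the 50 genes (16.0%) the change was above 0 in all 3 WT pairs and below 0 in all 3 TNFR2-/- pairs, a pattern seen in 2.29% of all genes tested. The reverse occurred in 0 of 50 genes and 1.38% of all genes. The 8 were *Psmb1*, *Psmb3*, *Psmb4*, *Psmb5*, *Psmc3*, *Psmc5*, *Psmd2* and *Psmd4*. The pattern depended on the scaling. With median-of-ratios scaling 7 of the 50 genes had it (2.01% of all genes) and with quantile normalization 5 (1.64%), of which 1 and 3 were among the 8, and *Psmb5* had it under all 3 scalings. *Psmb5* had the lowest interaction p (log2 -0.36 ± 0.08, adjusted p = 0.493 by limma).

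**Figure D4:**
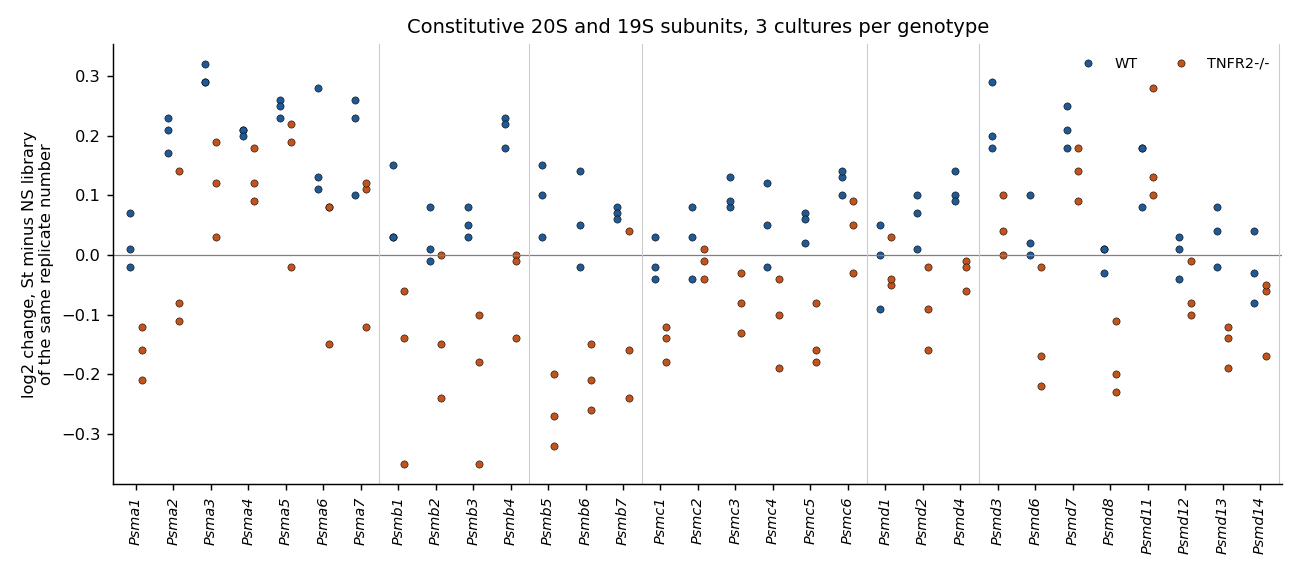
Log2 change from the NS to the St library of the same replicate number for the 14 constitutive 20S and 17 cap subunits, with 3 points for WT (blue) and 3 for TNFR2-/- (orange) and vertical lines between classes. For *Psmb5* the WT points lie between 0.03 and 0.15 and the TNFR2-/- points between -0.32 and -0.20.

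Without stimulation, 5 of the 50 genes differed between genotypes, against 10.9% of all genes, with 4 higher and 1 lower in libraries labelled TNFR2-/- (6.11% and 4.75% of all genes). With a 1.5-fold minimum 0 of the 50 were called, against 2.9% of all genes. *Psmg3* had 119, 123 and 138 reads in WT NS against 200, 182 and 198 (0.54 ± 0.09, adjusted p = 0.0156, limma). *Psmd5* had 1541, 1275 and 1498 against 1949, 1743 and 2183 (0.37 ± 0.10, adjusted p = 0.0459). *Psmf1* had 870, 705 and 775 against 1077, 972 and 1138 (0.37 ± 0.10, adjusted p = 0.0428), and *Psmb10* (0.42 ± 0.12) was called at an adjusted p of 0.0476. *Psme4* was the gene that was lower, with 4074, 4374 and 4488 against 3379, 3499 and 2728 reads (-0.49 ± 0.13, adjusted p = 0.0353).

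For each of the 5 the groups of libraries did not overlap, as was the case for 34.2% of all genes. All 8 assembly chaperones were above 0, as were 55.9% of all genes (median 0.18, against 0.04 for all genes), of which *Psmg3* and *Psmd5* were called. *Psmb9* was higher in each TNFR2-/- NS library, at 0.54 ± 0.17 (adjusted p = 0.0671). By mean RPM it was 2.19-fold higher, and the log2 value is smaller because both group means (0.302 and 0.661 FPKM) lie near the added 0.5. It was called with 0.1 FPKM added in place of 0.5, and not with voom on recovered reads. Astrocyte markers differed between the same groups (791 to 943 against 1220 to 2520 RPM), and their part in these differences was not tested. With median-of-ratios or quantile scaling 3 genes were called, 2 up and 1 down, against 1813 and 1738 of all genes. When WT NS replicate 3 or 4 or TNFR2-/- NS replicate 5 was left out, none of the 50 was called. Calls over all genes then fell from 1964 to 80, 96 and 178, in that order. Removal of TNFR2-/- NS replicate 2 or WT St replicate 4 left 1, that of WT St replicate 2 or TNFR2-/- St replicate 2 left 2, and that of WT NS replicate 2 left 3. Of all genes, 597, 1152, 1532, 1516 and 1580 were called in these fits, in the order given. *Psmg2* was at 0.38 ± 0.11 (668, 586 and 771 reads against 558, 438 and 483, adjusted p = 0.0597).

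**Figure D5:**
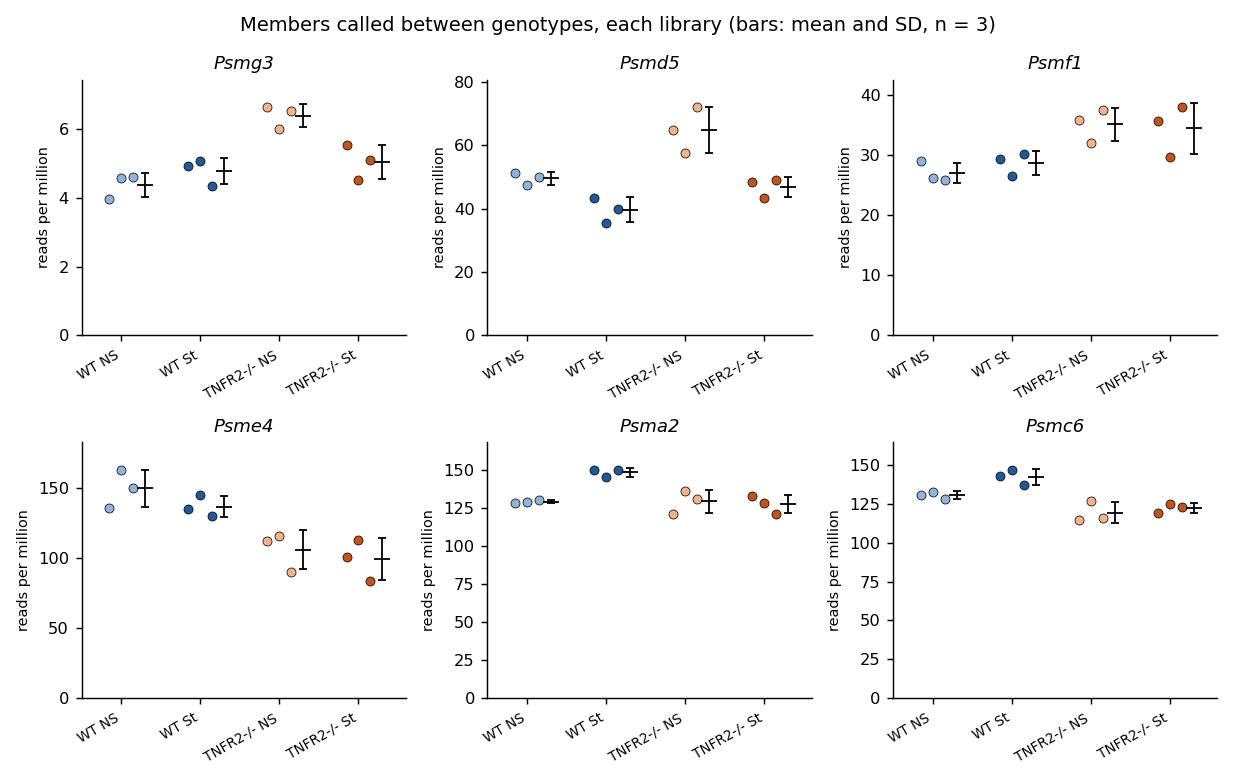
RPM of 6 members called between genotypes in each library, with bars for the mean and SD (n = 3). *Psmg3*, *Psmd5*, *Psmf1* and *Psme4* were called in the NS comparison, and *Psma2* and *Psmc6* in the St comparison, where both are lower in all TNFR2-/- St libraries than in any WT St library.

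With stimulation, 3 of the 50 genes differed between genotypes, against 5.45% of all genes, with 1 higher and 2 lower (2.7% and 2.75% of all genes). With a 1.5-fold minimum 1 was called, against 1.8% of all genes. *Psmb9* was higher in the libraries labelled TNFR2-/-, at 971, 796 and 1272 reads against 614, 611 and 604. That was 1.69-fold by mean RPM and 0.69 ± 0.17 on the log2 scale (adjusted p = 0.0453, limma). *Psma2* (-0.22 ± 0.05, adjusted p = 0.0458) and the ATPase *Psmc6* (-0.22 ± 0.05, adjusted p = 0.0426) were lower, but with median-of-ratios or quantile scaling *Psmb9* was the only gene called. Without TNFR2-/- St replicate 5, the library with the highest immunoproteasome sum (153.3 RPM, against 115.1 and 106.0 in the other two), *Psmb9* was at 0.50 (adjusted p = 0.123) and none of the 50 was called. The count was also 0 without any 1 of the 6 WT libraries or TNFR2-/- St replicate 2. Over all genes, 985 were called with all libraries, 133 without TNFR2-/- St replicate 5 and 244 without TNFR2-/- St replicate 2. Without 1 WT library that number was 61 to 645. Of the 50, 1 was called when TNFR2-/- NS replicate 2 was left out (616 of all genes). When replicate 4 or 5 of that group was left out, 5 were (1339 and 1418 of all genes). *Psmb10* stood at 0.36 ± 0.12 (adjusted p = 0.0889) and at 0.21 without TNFR2-/- St replicate 5. *Psmb8* (-0.02 ± 0.10, adjusted p = 0.911), *Psme1* and *Psme2* were not called. Of the 14 core subunits 13 were below 0 (median -0.16, and -0.15 and -0.17 under the other scalings, against 0 for all genes, of which 49.4% were above 0), and *Psma2* was called. The lid subunits *Psmd6* (3680, 3512 and 3638 reads in WT St against 3334, 3218 and 3202) and *Psmd12* (3908, 3901 and 3823 against 3655, 3597 and 3248) were at -0.13 ± 0.05 and -0.13 ± 0.04, and neither passed the test (adjusted p = 0.141 and 0.0911, limma). Groups that did not overlap were found for 27 of the 50 genes and 32.7% of all genes.

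The genes that use the peptides of the immunoproteasome were called in most cases. Of 11 genes of MHC class I peptide supply and loading, 8 rose in WT and 8 in TNFR2-/- (medians 1.99 and 2.07), and none fell. Upward calls over all genes were 7.7% in WT and 9.62% in TNFR2-/-. *Tap1*, the transporter subunit encoded beside *Psmb9*, rose by 5.45 in WT and 5.28 in TNFR2-/- on the log2 scale (adjusted p = 1.07e-08 and 1.44e-08, limma). *Tap2* rose by 3.68 and 3.71 (adjusted p = 3.19e-09 and 2.25e-09), and the peptide editor *Tapbpl* rose by 3.36 and 3.30 (adjusted p = 4.19e-07 and 4.5e-07). In the St comparison *H2-D1*, an MHC class I heavy chain, was higher in libraries labelled TNFR2-/- (0.53, adjusted p = 0.0298, limma). No other gene of the 11 was called, where 5.45% of all genes were.

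Of 12 interferon signaling factors, 11 rose in each genotype (medians 2.45 and 2.72), against upward calls of 7.7% and 9.62% over all genes. *Irf1*, a transcription factor that drives immunoproteasome genes, went from 162 to 271 reads in WT NS to 33742 to 36229 in WT St. *Nlrc5*, the transactivator of MHC class I genes, went from 16 to 28 to between 9698 and 10344 reads. *Irf8*, another interferon regulatory factor, went from 19 to 22 reads to between 11164 and 12405. Without stimulation 4 of the 12 differed between genotypes, 3 higher and 1 lower in libraries labelled TNFR2-/- (median 0.14), against 10.9% of all genes. *Irf1* (323 to 388 reads in TNFR2-/- NS), *Nlrc5* (34 to 68 reads) and *Irf8* were higher, with log2 fold changes of 0.66, 0.85 and 0.57 (adjusted p = 0.0188, 0.0242 and 0.0311, limma). The kinase gene *Jak2* was lower at -0.25 (adjusted p = 0.0353).

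Another list held 5 genes tied to the transcription of proteasome genes under proteasome shortage. In each genotype 1 of the 5 was called, against 16.1% of all genes in WT and 26% in TNFR2-/-. In WT 1 fell (*Ddi2*, the protease that activates NRF1, at -0.34, adjusted p = 0.00417, limma) and none rose. In TNFR2-/- libraries 1 rose (*Nfe2l2*, the gene of NRF2 and not of NRF1, at 0.44, adjusted p = 0.0477, limma) and none fell. *Nfe2l1*, the gene of NRF1, was at 0.02 ± 0.07 in WT and 0.07 ± 0.07 in TNFR2-/-. The 12 proteasome partners outside the naming pattern include *Adrm1* and *Shfm1*, 19S cap subunits that the 17 counted above leave out. Between genotypes 1 of the 12 was called lower in TNFR2-/- NS and 1 in TNFR2-/- St (4.75% and 2.75% of all genes). With stimulation 1 of the 12 was called in WT and 2 in TNFR2-/-, all downward, against 8.36% and 16.3% of all genes. *Ubqln2*, a ubiquitin shuttle, was called in WT (-0.49, adjusted p = 0.000262), and *Ubqln2* (-0.51) and the nuclear import factor *Akirin2* (-0.30, adjusted p = 0.00259) in TNFR2-/-.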

How the data were processed

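The deposited tables, 1 for NS and 1 for St libraries, hold FPKM per gene symbol (45792 entries each). Per the labels and the submitters' processing notes, the authors worked with Trim Galore, STAR, edgeR and GRCm38, and their methods name BGISeq-500 sequencing while the labels describe an Illumina library protocol. Left out were 229 entries with 1 of 99 repeated symbols. Spreadsheet dates stood in place of 27 symbols. Whole reads came back from the FPKM for 26636 of 26636 genes (tolerance 0.02 reads), and 99.99% of 16901 gene divisors were whole. Lengths for levels given per kilobase or per length come from GENCODE M21, and promoters from RefSeq. No protein sequences were used here.

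A single limma fit (limma 3.58.1, R 4.3.3) of 4 group means with a mean-variance trend took log2(FPKM + 0.5) as input and covered the 18081 genes that averaged 0.1 FPKM or more. P-values were adjusted by Benjamini-Hochberg over all of them. The study's captions speak of independent experiments, and neither they nor the labels say whether libraries come from separate litters, so p-values measure the spread between these libraries, which may be partly technical. On simulated data for WT St vs WT NS (17943 genes), calls were made for 77 of 100 genes set to 2-fold, 98 of 100 set to 4-fold and 15 that were not changed. No smaller change was simulated, so these figures do not cover the changes under 2-fold given above. Alternatives changed the pseudocount, the filter, the scaling, the trend, the library weights, the libraries fitted, the test (voom on recovered reads), a fold minimum and the replicate block. Python 3.11.15 (numpy 2.4.6, pandas 2.3.3, matplotlib 3.10.9) was used for the rest.

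Pairing was judged from deviations from group means over 13554 genes. For NS and St libraries of 1 genotype, r was 0.34 to 0.65 where replicate numbers matched (6 pairs) and -0.45 to 0.09 where they did not (12 pairs). For WT and TNFR2-/- libraries with a common number (4 pairs) it was -0.06 to 0.2. The numbers were therefore taken to pair NS with St libraries only.

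The genes and lists were chosen with earlier results of these data known. Values are given for the catalytic subunits, activators, *Psmf1* and *Pomp*, for the extremes of each other class in WT and for up to 5 further genes per comparison with the lowest adjusted p. From other lists, up to 3 genes called and at least 2-fold changed were named per comparison. *Psma8*, *Psmb11*, *Psmc3*, *Psmd2*, *Psmd13*, *H2-D1*, *Ddi2*, *Nfe2l1*, *Nfe2l2*, *Ubqln2* and *Akirin2* were named after their values were seen. So were *Psma7*, *Adrm1* and *Shfm1*, and *Irf1*, *Irf8*, *Jak2* and *Nlrc5* between genotypes.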

Additional observations from a re-analysis of the deposited data

Results flagged for a closer look

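In 8 constitutive genes the change from NS to St was above 0 in all 3 WT pairs of libraries and below 0 in all 3 TNFR2-/- pairs. The difference between genotypes in the log2 change (TNFR2-/- minus WT) was -0.36 for *Psmb5*, -0.26 for *Psmb3* and *Psmb4*, -0.25 for *Psmb1*, -0.19 for *Psmc5*, -0.18 for *Psmc3*, -0.15 for *Psmd2* and -0.14 for *Psmd4*. The interaction test of limma passed for none of them, with adjusted p of 0.493 to 0.653. The changes of single pairs ranged from 0.01 to 0.23 in WT and from -0.35 to 0 in TNFR2-/-. Under median-of-ratios scaling, chosen for this pattern after the data were seen, the mean TNFR2-/- change was above 0 for *Psmd4* (0.09), *Psmb4* (0.07), *Psmc3* (0.03) and *Psmd2* (0.03) and below 0 for *Psmc5* (-0.02), *Psmb1* (-0.06), *Psmb3* (-0.09) and *Psmb5* (-0.15). All 3 TNFR2-/- pairs stayed below 0 under that scaling for *Psmb5* alone of the 8.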

How the results depend on the processing

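The 6 immunoproteasome and PA28αβ genes were called upward in both genotypes under all 24 alternatives that keep the call rule and with a 1.5-fold minimum, and *Pomp*, *Psma3* and *Psmd3* in WT under the 24. Calls over all genes tested stand in square brackets. For TNFR2-/- NS vs WT NS (5 called [1964]), the count was 1 without a filter [1149 of 29325] and 9 with library weights [3699]. It was 3 with median-of-ratios scaling [1813], quantile normalization [1738] or limma without the trend [1669]. With the 6 libraries alone [8] or a 1.5-fold minimum [524] it was 0. For WT St vs WT NS (14 [2903]) it was 6 with that minimum [1361] and 18 with median-of-ratios scaling [2591]. For TNFR2-/- St vs TNFR2-/- NS (15 [4695]) it was 8 with 6 libraries [2769] and 6 with the minimum [1824]. In that comparison it was 27 with a replicate block, within genotype [8153] or by number over 12 libraries [7754]. For TNFR2-/- St vs WT St (3 [985]) it was 5 with a filter of 1 FPKM [1293 of 13554] or voom [1262] and 0 with 6 libraries [71]. It was 1 with median-of-ratios scaling [929], quantile normalization [823], limma without the trend [636] or the minimum [325]. Library weights gave 8 [2178] and the replicate block by number 7 [2533]. The WT count was 17 with the replicate block by number [5342] and 19 with that within genotype [5719]. The interaction gave 0 under every alternative (limma), with 3 to 26 genes at an unadjusted p under 0.05. Leaving out 1 library gave 0 to 6, 9 to 16, 10 to 15 and 0 to 5 genes for the 4 comparisons in the order given. Over all genes these fits called 80 to 2607, 2050 to 3148, 3637 to 4494 and 61 to 1418. Fewer libraries entered the fits that left some out, and otherwise the cause was not tested. *Psmb11* and *Psma8* had 10 reads or fewer in every library, and the part of depth in this was not tested. The count of genes above 0 in all WT pairs and below 0 in all TNFR2-/- pairs (8) was 7 with median-of-ratios scaling and 5 with quantile normalization, both tried after seeing the data.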
